A study of Macaca fascicularis with 38 samples.

Results

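The genes described here encode the superoxide dismutases, peroxiredoxins, glutathione peroxidases and thioredoxin that cells keep at hand against reactive oxygen. The members are taken by symbol and are SOD1, SOD2, PRDX1, PRDX2, PRDX3, PRDX5, PRDX6, GPX1, GPX4 and TXN. Of these 10 symbols, 9 had a row among the 29958 genes of the deposited table, and PRDX6 was not analysed here. RNA was sequenced from small pieces of prefrontal area 46, removed by biopsy from cynomolgus macaques once before and once after a period in which ethanol was freely available to drink. Of the 38 samples from 22 animals in the labels, the table holds both biopsies of 16 animals, which makes 32 libraries. The second biopsies of the other 6 animals were not analysed here. The 16 animals are 10 drinkers and 6 controls, with 5 drinkers and 3 controls in each of the cohorts 13 and 9. The marks of drinker and control come from the table header, since the labels give an ethanol treatment to every sample. "After" and "before" therefore name the second and the first biopsy in both kinds of animal, and the controls give the same contrast in animals marked as controls. The sources used here do not give age, sex, the interval between biopsies or the amounts drunk. Each library is 1 biopsy. For changes between biopsies, p-values therefore cover the spread of those changes between animals. Within 1 biopsy they cover the spread of levels between animals. Both include the spread between pieces of tissue, which cannot be split off.

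Superoxide is made mainly as a by-product of mitochondrial respiration and by oxidases. Superoxide dismutases turn it into hydrogen peroxide, SOD1 in the cytosol with copper and zinc and SOD2 in the mitochondrial matrix with manganese. Peroxiredoxins and glutathione peroxidases then reduce hydrogen peroxide and organic peroxides. Most peroxiredoxins draw their electrons from thioredoxin, and glutathione peroxidases draw theirs from glutathione. In the brain, neurons respire heavily and their membranes are rich in polyunsaturated lipids, and the breakdown of ethanol is itself a known source of reactive oxygen.

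Most members were among the most abundant transcripts of the tissue. Levels are given in TPM, the usual unit of transcript abundance, scaled to gene length and to the same total in each library, so that genes can be compared. Over the 32 libraries SOD1 averaged 1050.1 ± 239 TPM (SD), rank 48 of the 15324 genes with a mean of at least 1 TPM. PRDX5, found in mitochondria, peroxisomes and the cytosol, followed at 535 ± 102 TPM, and PRDX2, a cytosolic peroxiredoxin that is also abundant in red blood cells and neurons, at 383 ± 113 TPM. These first positions were steady, since SOD1 exceeded PRDX5 in 32 of 32 libraries, PRDX5 exceeded PRDX2 in 31 and PRDX2 exceeded TXN in 32. TXN, the thioredoxin that reduces peroxiredoxins in the cytosol, averaged 246 ± 58.4 TPM. GPX4, which reduces lipid peroxides within membranes and guards against ferroptosis, averaged 243 ± 57.3 TPM. The order of this pair was not fixed, since TXN was above GPX4 in 18 of 32 libraries. PRDX1, the cytosolic and nuclear peroxiredoxin, averaged 154 ± 46.3 TPM and the mitochondrial PRDX3 136 ± 45.1 TPM. PRDX1 was above PRDX3 in 21 of 32 libraries, so the order of these neighbours was not fixed either. SOD2 averaged 88.9 ± 23.1 TPM and GPX1, the general glutathione peroxidase of cytosol and mitochondria, 38.5 ± 10.7 TPM. PRDX3 was above SOD2 in 29 libraries and SOD2 above GPX1 in 31. In rank, SOD2 lay within the top 9.14% of the tested genes and GPX1 within the top 21.1%. Together the 9 genes took 0.311% ± 0.0495 of all TPM in drinkers after and 0.272% ± 0.0592 in drinkers before (SD, n = 10 each). In controls they took 0.295% ± 0.0617 after and 0.268% ± 0.073 before (SD, n = 6 each). The libraries held unstranded reads, so those of a member cannot be told from those of an overlapping gene on the other strand or of a near-identical copy elsewhere in the genome.

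Depth as recovered from the TPM ranged from 10.2 M to 32.1 M reads per library. Cohort 13 was the deeper one, at a median of 27.7 M reads per library against 13.1 M for cohort 9. The least covered member was GPX1, with 223 to 1625 reads per library, and no other member had fewer than 749. As a check of the tissue label, the 8 neuronal markers summed to between 2419 and 8576 TPM, and no marker of any list was at 0 in all libraries of a group. Neuronal markers had a median sum of 5736 TPM in drinkers after and 3647 TPM in drinkers before, and 4840 TPM in controls after and 3567 TPM in controls before. The highest sum of the 6 leukocyte markers was 31.1 TPM in drinkers after and 1269 TPM in drinkers before, and 31.9 TPM in controls after and 507 TPM in controls before. The 13 mitochondrially encoded genes took 35.7% ± 5.71 of TPM in drinkers after and 41.5% ± 10.3 in drinkers before, and 37.8% ± 4.38 in controls after and 42.0% ± 9.58 in controls before. On the same scale the median change over all tested genes was a log2 value of 0.20 in drinkers and 0.12 in controls. The part that these shifts had in the members' changes was not tested. In bulk tissue, fewer cells of a type and less RNA per cell cannot be told apart.

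**Figure D1:**
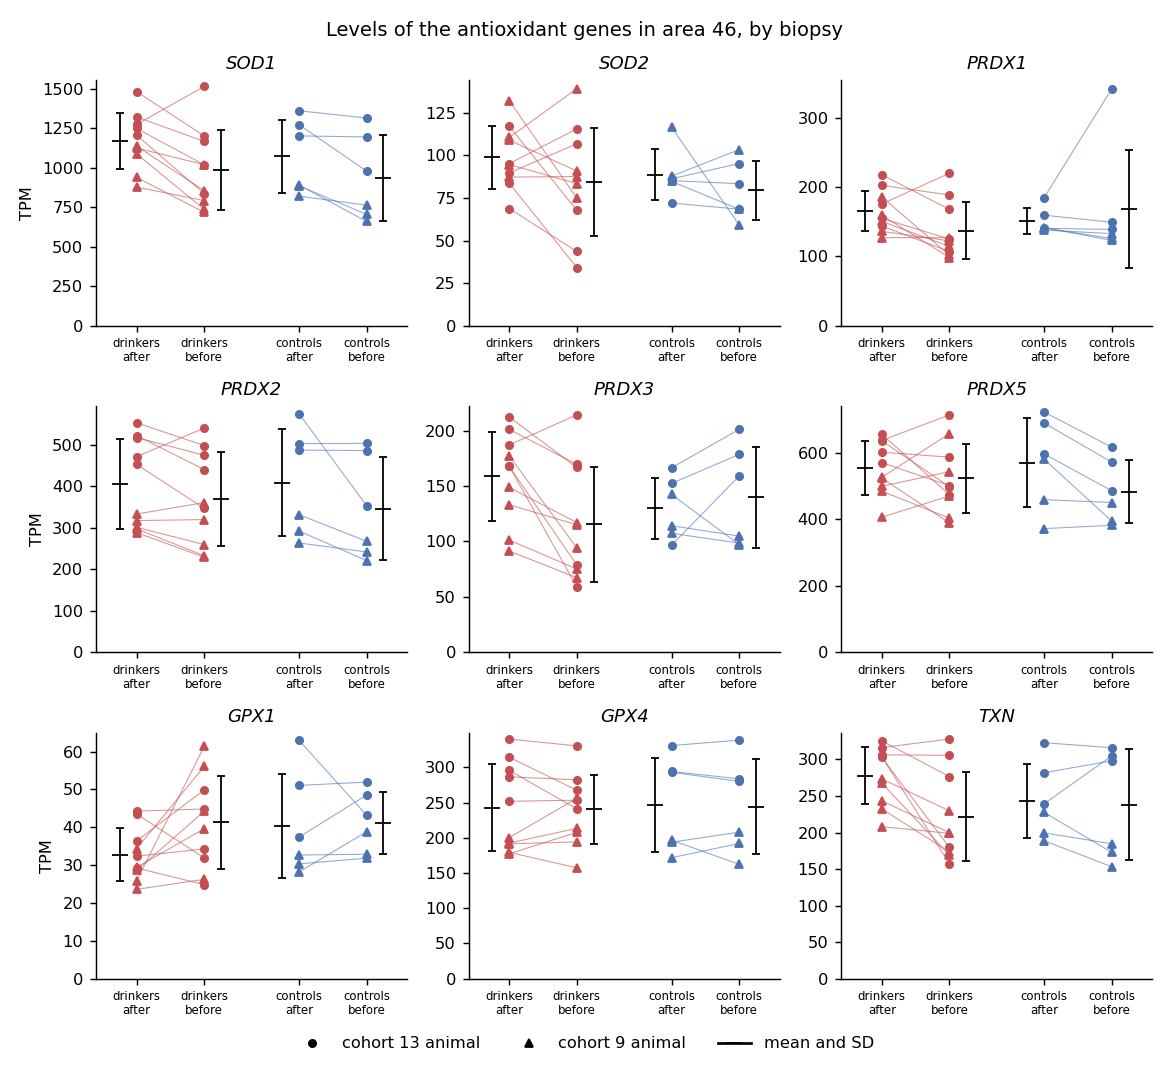
TPM of each of the 9 genes in every library. Each line joins the 2 biopsies of 1 animal (red for drinkers, n = 10, blue for controls, n = 6, circles for cohort 13, triangles for cohort 9), and black bars give the mean and SD of each group. The after and before ranges overlapped for every gene in both kinds of animal.

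The second biopsy was set against the first in drinkers to ask which of these genes changed over the drinking period. SOD1, PRDX1, PRDX3 and TXN rose on the TPM scale and no member fell, while none of them passed, and GPX1 fell, once libraries were scaled to a common median. On the TPM scale these are 4 of the 9 members, beside 32.7% of all 15324 tested genes that rose (35.9% called either way, 3.23% lower). The median change of the members was a log2 value of 0.27, against 0.20 over all genes. The test was limma-trend on log2(TPM + 1) with the animal as a block, and a Benjamini-Hochberg adjusted p below 0.05 over all genes. In controls 0 of the 9 members passed by limma-trend, beside 0.3% of all genes, and 0 passed by limma-voom, beside 100 genes. PRDX2 was the 1 member with an unadjusted p below 0.05 by limma-trend, beside 1961 of all 15324 genes. The members' median change there was 0.07, against 0.12 over all genes.

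Among the superoxide dismutases, SOD1 in drinkers had a lowest, median and highest level of 877, 1172 and 1482 TPM after and of 717, 937 and 1514 TPM before. In controls these levels were 820.0, 1046 and 1361 TPM after and 659, 871 and 1314 TPM before. The ranges overlapped in both kinds of animal, but SOD1 was higher after in 9 of 10 drinkers and in 6 of 6 controls. Its log2 change was 0.27 ± 0.08 (SE, adjusted p = 0.0166 by limma-trend) in drinkers and 0.22 ± 0.11 (adjusted p = 0.395) in controls. Within cohorts, the mean change in drinkers was 0.21 ± 0.29 (SD, n = 5) in cohort 13 and 0.33 ± 0.18 in cohort 9. Drinker X10230 went against the rest at -0.25, and its first library had the highest SOD1 of all. The mitochondrially encoded share of TPM in this animal was 31.55% after and 21.7% before, the opposite direction to the group means, and the part of that share in the result was not tested. SOD2, which inflammatory signals induce in many cell types, had 68.8, 94.9 and 132 TPM in drinkers after and 34.1, 85.6 and 139 TPM in drinkers before. In controls it had 72.1, 85.7 and 117 TPM after and 59.1, 75.9 and 103 TPM before. The ranges overlapped, and the SD among drinkers was 18.5 TPM after and 31.8 TPM before. SOD2 did not pass the test, with a log2 change of 0.31 ± 0.15 (adjusted p = 0.110) in drinkers, higher in 6 of 10, and 0.17 ± 0.19 (adjusted p = 0.717) in controls.

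Of the peroxiredoxins, PRDX3 had the largest estimate in drinkers. This mitochondrial enzyme, which reduces hydrogen peroxide in the matrix, had 91.5, 168 and 213 TPM (lowest, median, highest) in drinkers after and 58.8, 105 and 214 TPM in drinkers before. In controls it had 96.6, 128 and 167 TPM after and 97.2, 132 and 201 TPM before. The groups overlapped, and PRDX3 was higher after in 9 of 10 drinkers and in 3 of 6 controls, with a log2 change of 0.53 ± 0.14 (SE, adjusted p = 0.00958 by limma-trend) in drinkers and -0.07 ± 0.18 (adjusted p = 0.880) in controls. Within cohorts the controls parted. In cohort 13 the mean change was 0.60 ± 0.68 (SD, n = 5) in drinkers and -0.40 ± 0.27 (n = 3) in controls, lower in all 3 of those controls. In cohort 9 it was 0.46 ± 0.26 in drinkers and 0.26 ± 0.25 in controls, higher in all 8 animals on the TPM scale. With libraries scaled to a common median PRDX3 was higher in 5 of 5 drinkers and 1 of 3 controls of cohort 9, with a mean of -0.02 in those controls, and lower in 3 of 3 controls of cohort 13, with a mean of -0.40. The largest changes, 1.5 and 1.08, came from drinkers X10227 and X10226 of cohort 13, whose 2 libraries carry different RNA codes in the sample titles. Their first libraries had mitochondrially encoded shares of 56.4% and 50.9%, and the part of code and share in these changes was not tested. Control X10232 of cohort 13, with the largest fall of the controls at -0.71, has unequal codes too. Without the 3 animals with unequal codes the change was 0.34 (adjusted p = 0.0569) in drinkers and 0.06 in controls.

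PRDX1 had 127, 157 and 218 TPM in drinkers after and 98.2, 124 and 220.0 TPM in drinkers before. In controls it had 138, 141 and 185 TPM after and 123, 136 and 342 TPM before. It was higher after in 9 of 10 drinkers and in 5 of 6 controls, and the groups overlapped. The log2 change was 0.30 ± 0.12 (SE, adjusted p = 0.0490 by limma-trend) in drinkers and -0.06 ± 0.15 (adjusted p = 0.876) in controls. Control X10233 held 342 TPM in its first library and had a change of -0.88, while the other controls lay between 0.02 and 0.20. The call in drinkers rested on a narrow margin, since it held in 2 of 16 fits that each left out 1 animal, those without X10230 and X10233.

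The other cytosolic and multi-compartment peroxiredoxins did not pass in drinkers or in controls. PRDX2 had 288, 393 and 553 TPM in drinkers after and 229, 353 and 539.8 TPM in drinkers before, and 263, 409 and 575 TPM in controls after and 221, 310.0 and 503 TPM in controls before. Its log2 change was 0.15 ± 0.09 (SE, adjusted p = 0.179 by limma-trend) in drinkers and 0.26 ± 0.11 (adjusted p = 0.336) in controls. Control X10232, with unequal RNA codes, had the largest PRDX2 change of the controls at 0.70, and the part of code was not tested. PRDX5 had 407, 549 and 657 TPM in drinkers after and 389, 500.3 and 715 TPM in drinkers before, and 372, 589 and 724 TPM in controls after and 382, 468 and 617 TPM in controls before. Its log2 change was 0.09 ± 0.09 (adjusted p = 0.449) in drinkers and 0.22 ± 0.12 (adjusted p = 0.427) in controls. For both genes all groups overlapped, and the change in drinkers minus that in controls was -0.11 ± 0.14 for PRDX2 and -0.13 ± 0.15 for PRDX5, each smaller than its error.

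GPX1, which detoxifies hydrogen peroxide with glutathione, was the 1 member with a negative estimate in drinkers on the TPM scale. It had 23.6, 30.9 and 44.3 TPM in drinkers after and 24.8, 41.9 and 61.4 TPM in drinkers before. In controls it had 28.2, 35.0 and 63.0 TPM after and 31.8, 41.0 and 51.9 TPM before. The ranges overlapped, and GPX1 was lower after in 8 of 10 drinkers and in 5 of 6 controls. Its log2 change was -0.30 ± 0.13 (SE, adjusted p = 0.0877 by limma-trend) in drinkers and -0.06 ± 0.17 (adjusted p = 0.886) in controls. Without X10230 it passed in drinkers at -0.38 (adjusted p = 0.0252). In cohort 13 the mean change was 0.02 ± 0.33 (SD, n = 5) in drinkers and 0.05 ± 0.46 (n = 3) in controls, while in cohort 9 it was -0.62 ± 0.40 in drinkers and -0.18 ± 0.24 in controls and negative in all 8 animals, also with libraries scaled to a common median. The difference between the cohorts' changes was 0.48 ± 0.19 (SE) and did not pass (adjusted p = 0.634). GPX4 had 177, 226 and 340.1 TPM in drinkers after and 157, 247 and 331 TPM in drinkers before. In controls it had 172, 245 and 331 TPM after and 162, 244 and 339 TPM before. The ranges overlapped, and GPX4 had log2 changes of 0.00 ± 0.08 (adjusted p = 0.990) in drinkers and 0.02 ± 0.10 (adjusted p = 0.952) in controls.

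TXN had 208, 288 and 325 TPM in drinkers after and 157, 199 and 328 TPM in drinkers before. In controls it had 189, 233 and 323 TPM after and 153, 241 and 316 TPM before. TXN was higher after in 9 of 10 drinkers and in 4 of 6 controls, and the groups overlapped. The log2 change was 0.36 ± 0.10 (SE, adjusted p = 0.0138 by limma-trend) in drinkers and 0.07 ± 0.13 (adjusted p = 0.836) in controls. Within cohorts it was 0.38 ± 0.45 (SD, n = 5) in drinkers of cohort 13 and 0.34 ± 0.22 in drinkers of cohort 9, and -0.13 ± 0.19 (n = 3) in controls of cohort 13 and 0.27 ± 0.14 in controls of cohort 9. The largest TXN changes, 0.95 and 0.75, came from drinkers X10226 and X10227, whose 2 libraries carry different RNA codes. Control X10232, with unequal codes too, had the lowest change of the controls at -0.35. The part of code in these changes was not tested. SOD1, PRDX3 and TXN passed in drinkers in all 16 fits that left out 1 animal. None of them passed in the 13 animals with a single RNA code, beside 10.3% of all genes.

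**Figure D2:**
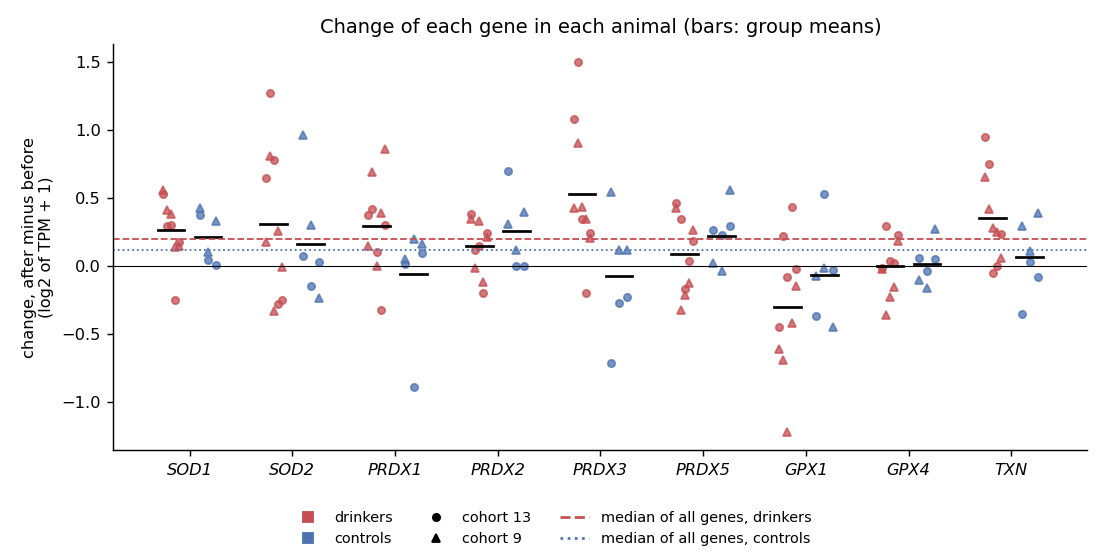
Change of each gene in each animal, as log2(TPM + 1) after minus before (red for drinkers, blue for controls, circles for cohort 13, triangles for cohort 9, black bars for group means). Broken lines mark the median change over all tested genes, 0.20 in drinkers and 0.12 in controls. PRDX3 and PRDX1 show the widest gaps between the group means, with overlapping groups.

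The direct test of drinkers against controls compared their changes. No member passed, and 0 of 15324 genes passed by limma-trend or by limma-voom (percent called 0), with 1036 genes and, of the members, PRDX3 alone at an unadjusted p below 0.05. The change in drinkers minus that in controls was 0.60 ± 0.23 (SE, adjusted p = 0.634) for PRDX3, 0.36 ± 0.19 (adjusted p = 0.634) for PRDX1 and 0.29 ± 0.17 (adjusted p = 0.634) for TXN. For SOD1 it was 0.05 ± 0.13 (adjusted p = 0.898). In the 13 animals with a single RNA code the PRDX3 difference was 0.28, and 0 of all genes passed there. The part of code in the PRDX3 difference was not tested. A call in drinkers without one in controls is therefore not shown to be a difference between them for any of these genes. The levels within 1 biopsy gave no call either. In the second biopsies, drinkers against controls, 0 of 9 members and 0% of genes passed by limma-trend, with 1086 genes at an unadjusted p below 0.05 and TXN as the 1 member among them at 0.20 ± 0.08 (adjusted p = 0.673). PRDX3 stood at 0.27 ± 0.15 (adjusted p = 0.685) and GPX1 at -0.26 ± 0.13 (adjusted p = 0.673) there. In the first biopsies, before any drinking, 0 members and 0% of genes passed, with 215 genes and 0 members at an unadjusted p below 0.05. PRDX3 had an estimate of -0.33 ± 0.24 in those first biopsies, where a negative value means lower in the animals that later drank. limma-voom called 0 genes in both comparisons.

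With all 16 animals together, 3 members rose on the TPM scale, and with libraries scaled to a common median none did (9.7% of all genes), while GPX1 fell (17.1% of all genes, 26.8% either way) and the PRDX2 estimate turned to -0.03 (adjusted p = 0.839). On the TPM scale SOD1 rose by a log2 value of 0.25 ± 0.06 (SE, adjusted p = 0.00695 by limma-trend) and was higher after in 15 of 16 animals. TXN rose by 0.25 ± 0.09 (adjusted p = 0.0291), higher in 13, and PRDX2 rose by 0.19 ± 0.07 (adjusted p = 0.0329), higher in 12. These 3 of 9 members stand beside 32.9% of all genes that rose (36.6% called either way, 3.69% lower), with a median change of 0.19 over the members and 0.17 over all genes. PRDX3 did not pass over all animals, at 0.31 ± 0.13 (adjusted p = 0.0608), but did without X10230, X10232, X10233 or X10234 (adjusted p down to 0.0183). PRDX1, at 0.16 ± 0.10 (adjusted p = 0.180), passed without X10233 at 0.23 (adjusted p = 0.0292). SOD1 passed in 16 of 16 fits that left out 1 animal, and PRDX2 and TXN in 11 each. PRDX2 lost its call without X10197, X10200, X10203, X10204 or X10226 (adjusted p up to 0.0632). TXN lost it without X10197, X10200, X10201, X10226 or X10227 (adjusted p up to 0.0603).

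The calls in drinkers depended on how libraries were put on a common scale. When each library was scaled to the same median, the median change of all genes in drinkers was -0.06 and that of the members 0.01. No member then rose, beside 12.1% of all genes, and GPX1 fell, beside 19.4% of all genes (31.5% either way). The scaled change of GPX1 in drinkers was -0.56 ± 0.16 (SE, adjusted p = 0.0177 by limma-trend), that of PRDX3 0.27 ± 0.12 (adjusted p = 0.0776), that of TXN 0.10 ± 0.12 (adjusted p = 0.541) and that of SOD1 0.01 ± 0.10 (adjusted p = 0.942). PRDX3 was still higher after in 9 of 10 drinkers, TXN and PRDX1 in 6 of 10 and SOD1 in 4 of 10. limma-voom on the recovered reads gave the same single call, GPX1 at -0.51 (adjusted p = 0.0367), with PRDX3 at 0.31 (adjusted p = 0.0558), beside 12.9% of genes lower and 15.9% higher. With the mitochondrially encoded genes removed from the total, PRDX3 rose by 0.38 (adjusted p = 0.0211) and GPX1 fell by 0.45 (adjusted p = 0.0299), beside 21.2% of genes higher and 8.81% lower, and no other member passed. The authors' deposited table gives GPX1 a log2 fold change of -0.55 (FDR 0.00854) in drinkers and -0.21 (FDR 0.760) in controls. In the authors' deposited table GPX1 is the only member with an FDR below 0.05 in drinkers, beside 29.6% of 18922 genes (15.4% lower), and no member has one in controls, beside 1.78%. PRDX3 has a log2 fold change of 0.28 (FDR 0.0734) in drinkers in the authors' deposited table and SOD1 one of 0.02 (FDR 0.880). No member is in the authors' 4 deposited lists of changed genes. These hold 567 genes higher and 675 lower in drinkers, and 39 higher and 38 lower in controls, of 18922 genes with an FDR. In drinkers 5599 genes have an FDR below 0.05, more than the lists hold. Across these 4 scales of the TPM and reads, PRDX3 had the highest and GPX1 the lowest estimate of the members in drinkers.

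**Figure D3:**
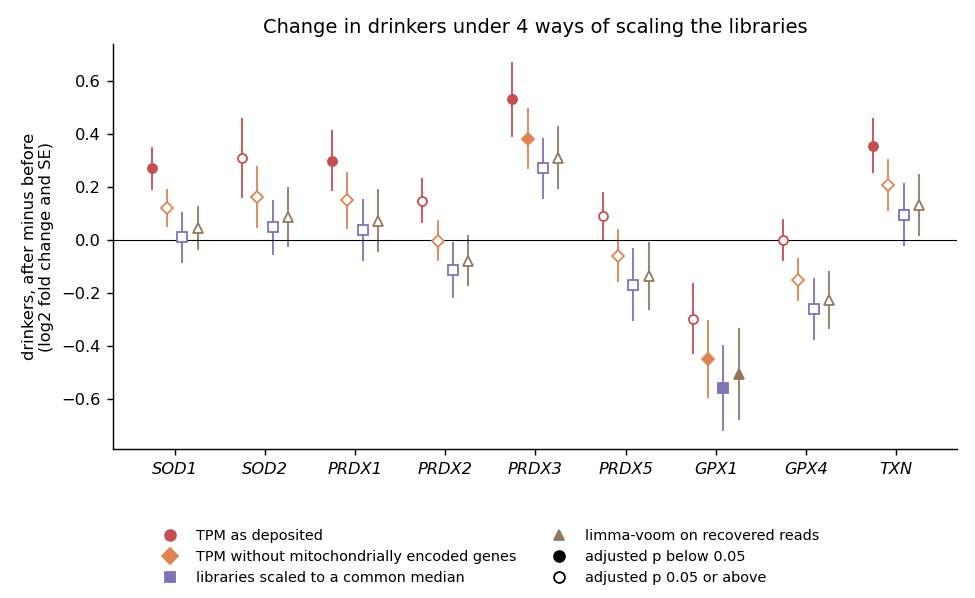
Log2 change in drinkers (n = 10) with its SE for each gene on 4 scales: TPM as deposited, TPM without mitochondrially encoded genes, libraries scaled to a common median, and limma-voom on recovered reads. Filled points have an adjusted p below 0.05. SOD1, PRDX1 and TXN are filled on the deposited scale alone, PRDX3 on that scale and without mitochondrially encoded genes, and GPX1 on the other 3 scales.

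Markers of cell types and blood moved beside these changes, and their part in them was not tested beyond the covariates given next. In drinkers, 6 of 8 neuronal markers rose, such as SNAP25 by a log2 value of 0.71, and 4 of 6 leukocyte markers fell, such as S100A8 by 2.39. Of 7 oligodendrocyte markers 2 also rose (median change 0.69 over the list), and of 6 astrocyte markers AQP4 did. Of 8 microglial markers TYROBP and C1QC fell, and none of the 3 tested red blood cell markers passed. Red blood cells are rich in PRDX2, GPX1 and SOD1, and their markers summed to 144 to 798 TPM in drinkers after and 16.6 to 19845 TPM in drinkers before, and to 120.0 to 8445 TPM in controls after and 25.8 to 10052 TPM in controls before. With the red blood cell level as a covariate, PRDX3 in drinkers was 0.52 (adjusted p = 0.0384 by limma-trend), beside 15.6% of genes higher, while SOD1 at 0.20 (adjusted p = 0.0963), TXN at 0.31 (adjusted p = 0.0635) and PRDX1 at 0.25 (adjusted p = 0.169) did not pass. With marker levels of the 3 main neural cell classes (neurons, oligodendrocytes, astrocytes) as covariates no member passed, with PRDX3 at 0.25 (adjusted p = 0.329), TXN at 0.29 (adjusted p = 0.191) and SOD1 at 0.16 (adjusted p = 0.187). In that fit 228 of all genes passed (1.49%), against 5500 without covariates. In the 13 animals with a single RNA code no member passed in drinkers, with SOD1 at 0.24 (adjusted p = 0.0766), and 1601 genes did (10.3%). In controls no marker of any of the 7 cell type lists passed, beside 0.3% of all genes. Median changes in controls were 0.28 for neuronal, 0.04 for oligodendrocyte, -0.22 for astrocyte and -0.41 for microglial markers. Leukocyte markers had -0.60 there, red blood cell markers 0.55 and endothelial markers -0.17. In drinkers these medians were, in the same order, 0.57, 0.69, 0.37, -0.29, -1.06, -1.03 and -0.22.

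The labels assign each animal to a cohort, and the cohorts were compared within 1 biopsy at a time. In the first biopsies, SOD1, PRDX2, GPX4 and TXN were higher in cohort 13 than in cohort 9 and none was lower. These 4 of 9 members stand beside 4.45% of 15225 genes called higher (16.4% either way, 12% lower). The members had a median difference of 0.52, against -0.04 over all genes. In the second biopsies of the same animals 7 of 9 were higher in cohort 13, beside 10.7% of all genes called higher (36.3% either way, 25.6% lower), with a median difference of 0.42 over the members and -0.13 over all genes. That second comparison was added after the first had been seen, and it uses the same animals, so it is no independent sample.

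PRDX2 had the largest estimate of the members in both biopsies. In the first biopsies it had 346, 480.1 and 539.8 TPM (lowest, median, highest, n = 8) in cohort 13 and 221, 250.4 and 360.2 TPM in cohort 9. In the second biopsies it had 452, 509.7 and 575 TPM in cohort 13 and 263, 299 and 333 TPM in cohort 9. The cohorts overlapped slightly before and not at all after, with log2 differences of 0.77 ± 0.14 (SE, adjusted p = 0.00116 by limma-trend) before and 0.75 ± 0.08 (adjusted p = 5.02e-06) after. GPX4 had 241, 281 and 339 TPM in cohort 13 and 157, 201 and 256 TPM in cohort 9 before, and 252, 295 and 340.1 TPM in cohort 13 and 172, 192 and 200.1 TPM in cohort 9 after. Its ranges overlapped before and were apart after, and its differences were 0.52 ± 0.13 (adjusted p = 0.0102) before and 0.67 ± 0.08 (adjusted p = 7.71e-06) after. SOD1 had 836, 1180.4 and 1514 TPM in cohort 13 and 659, 749.7 and 1019 TPM in cohort 9 before, and 1201, 1273 and 1482 TPM in cohort 13 and 820.0, 915 and 1137 TPM in cohort 9 after. It too overlapped before and was apart after, with differences of 0.55 ± 0.13 (adjusted p = 0.0089) before and 0.42 ± 0.08 (adjusted p = 0.000555) after. How many of all genes had ranges apart between the cohorts was not counted, so these ranges single out no member.

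TXN differed by 0.51 ± 0.16 (SE, adjusted p = 0.0383 by limma-trend) before and by 0.39 ± 0.08 (adjusted p = 0.00142) after. The TXN call in the first biopsies held in 4 of 16 fits that left out 1 animal, those without X10206, X10207, X10226 or X10227, with an adjusted p of up to 0.0837. SOD1, PRDX2 and GPX4 kept theirs in all 16. PRDX3 differed by 0.58 ± 0.23 (adjusted p = 0.0907) before and by 0.41 ± 0.14 (adjusted p = 0.0325) after. In cohort 13 before, PRDX3 stood at 78.7 TPM in X10226 and 58.8 TPM in X10227, while the other 6 libraries lay between 159 and 214 TPM. PRDX3 passed before without X10226 at 0.68 (adjusted p = 0.0346) or without X10227 at 0.74 (adjusted p = 0.0103). PRDX1 had 0.52 ± 0.18 (adjusted p = 0.0598) before, passing without X10227, X10232 or X10236 (adjusted p down to 0.0230), and 0.22 ± 0.10 (adjusted p = 0.0996) after. PRDX5 differed by 0.28 ± 0.14 (adjusted p = 0.167) before and by 0.42 ± 0.09 (adjusted p = 0.00195) after. GPX1 had a difference of 0.00 ± 0.20 (adjusted p = 0.990) before and was higher in cohort 13 after by 0.49 ± 0.12 (adjusted p = 0.00479). Its levels in cohort 9 were 23.6 to 34.3 TPM after and 26.2 to 61.4 TPM before. SOD2 had lower estimates in cohort 13, -0.26 ± 0.24 (adjusted p = 0.490) before and -0.24 ± 0.11 (adjusted p = 0.109) after.

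**Figure D4:**
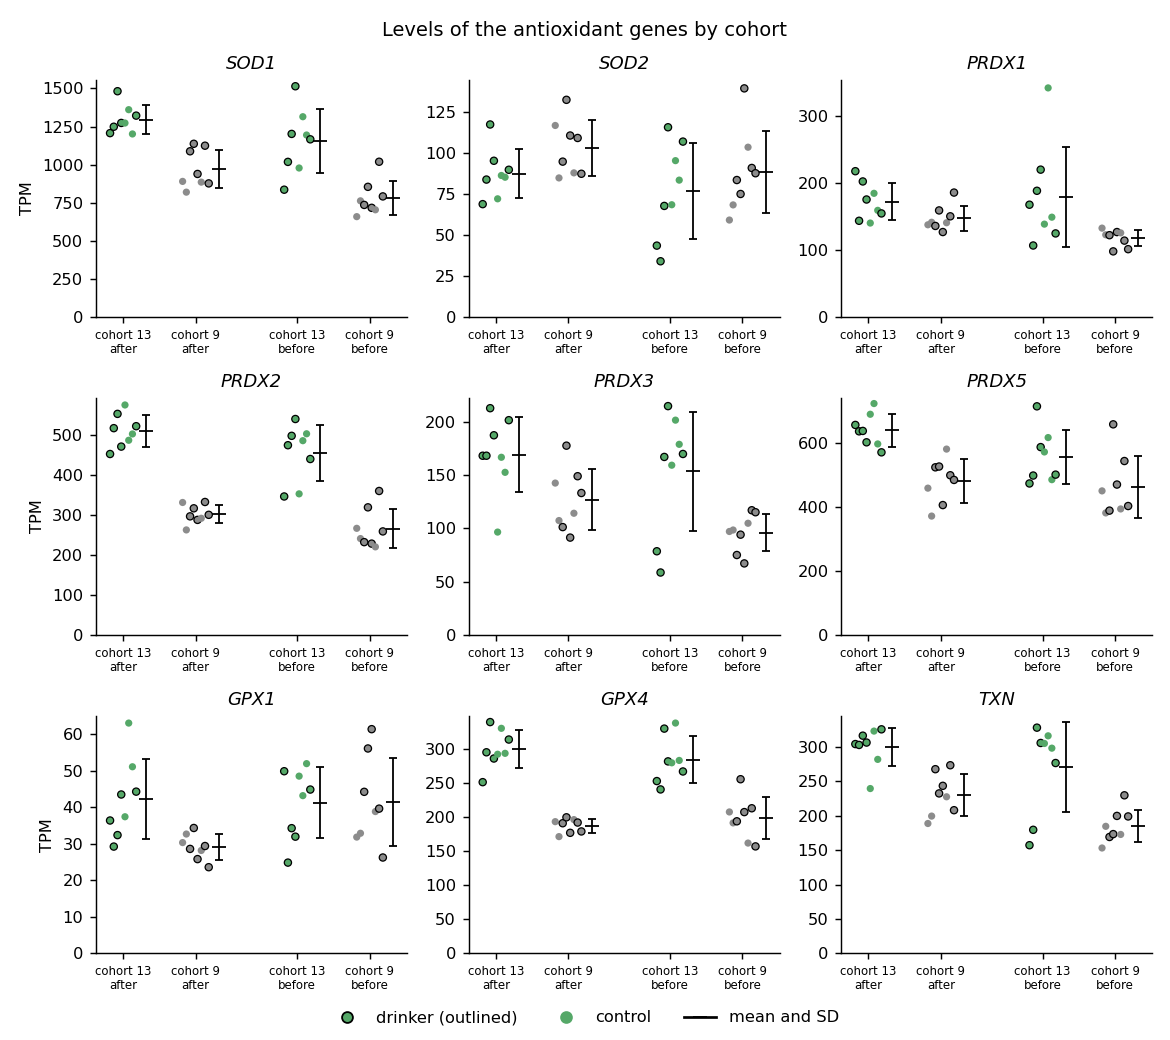
TPM of each gene by cohort (green for cohort 13, grey for cohort 9, n = 8 each, drinkers outlined) in the second and the first biopsies, with the mean and SD as black bars. SOD1, PRDX2 and GPX4 do not overlap between the cohorts after, and the share of all genes without overlap was not counted. SOD2 averages lower in cohort 13 in both biopsies.

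Scaling libraries to a common median left the cohort difference in place, with 6 members higher in cohort 13 before (20.3% of all genes, with 13.7% lower and 33.9% either way) and 8 after (27.5%, with 16.4% lower and 43.9% either way). Calls with covariates are given for each biopsy, and a difference between the biopsies was not tested. Before, no member passed with the composition covariates (7.89% of all genes) or with the red blood cell covariate (3.4%), and PRDX2 stood at 0.19 (adjusted p = 0.535 by limma-trend) with the first and 0.43 (adjusted p = 0.147) with the other. After, 8 members were higher and SOD2 was lower with the composition covariates, beside 9.16% of all genes higher and 24.5% lower. With the red blood cell covariate 7 were higher and none lower, beside 9.41% of genes higher and 23.5% lower, with PRDX2 at 0.62 (adjusted p = 0.000264) in the composition fit and 0.73 (adjusted p = 1.63e-05) in the red blood cell fit. Neural markers also differed between the cohorts in the first biopsies, some in the direction of the members and some against it. Of 7 oligodendrocyte markers 5 were higher in cohort 13 (median difference 1.46), of 8 neuronal markers SYT1 and STMN2 were higher (median 0.52), and of 6 astrocyte markers SLC1A2 and ALDH1L1 were lower (median -0.42). In the second biopsies no oligodendrocyte or neuronal marker passed, and 2 of 6 astrocyte markers were lower. SLC1A2 stood at -2.54 there and the other astrocyte markers between -0.44 and -0.24. All 6 make up the astrocyte covariate, and the part of SLC1A2 in the composition fit was not tested. The part of these markers in the members' differences was not tested beyond the covariates. Red blood cell markers had a median sum of 181 TPM in cohort 13 and 2386 TPM in cohort 9 before, and 587 TPM in cohort 13 and 784 TPM in cohort 9 after. All 6 leukocyte markers were lower in cohort 13 before, with S100A8 at -4.31, and their sums were 7.48 to 50.6 TPM in cohort 13 and 39.0 to 1269 TPM in cohort 9. After, those sums were 5.78 to 24.7 TPM in cohort 13 and 13.4 to 31.9 TPM in cohort 9. All libraries of cohort 9 share 1 RNA code and those of cohort 13 carry the 2 others, and depth was higher in cohort 13, so cohort, code and depth cannot be told apart. The change between biopsies did not differ between the cohorts for any member by limma-trend, beside 0.0131% of all genes called, and limma-voom called 0. GPX1 was the 1 member at an unadjusted p below 0.05 by limma-trend, beside 1148 of all 15324 genes.

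Enzymes that work with the members were followed as a list of 24 partners, all in the table, of which 23 had a mean of at least 1 TPM and GPX8 did not. In drinkers 8 of 23 rose and none fell on the TPM scale, while with libraries scaled to a common median 2 rose, SESN3 and GLRX2, and 3 fell, TXNRD2 and CCS among them. Of all genes 32.7% rose and 3.23% fell on the TPM scale, against 12.1% that rose and 19.4% that fell at the common median. On the TPM scale the partners had a median change of 0.22, against 0.20 over all genes. In controls none of 23 passed by limma-trend, and the median was 0.17, against 0.12 over all genes. Of the partners 4 had an unadjusted p below 0.05 there, beside 1961 of all 15324 genes. Among the glutaredoxins, which work with glutathione, GLRX2 of mitochondria averaged 30.1 ± 5.96 TPM in drinkers after and 18.7 ± 7.77 TPM before (SD, n = 10). GLRX2 rose by a log2 value of 0.73 ± 0.17 (SE, adjusted p = 0.00572), GLRX3 by 0.53 ± 0.13 (adjusted p = 0.00711) and GLRX by 0.37 ± 0.11 (adjusted p = 0.0123), each in 9 of 10 drinkers. Sestrins are stress-induced proteins that have been linked to the recycling of peroxiredoxins. SESN3 rose by 0.67 ± 0.16 (adjusted p = 0.00618) and SESN1 by 0.50 ± 0.13 (adjusted p = 0.0101), each in 9 of 10 drinkers. TXNRD1, the cytosolic reductase that recharges thioredoxin, was found under its RefSeq gene number and rose by 0.51 ± 0.16 (adjusted p = 0.0219), higher in 8 of 10. GCLC, the catalytic subunit of the enzyme that limits glutathione synthesis, rose by 0.58 ± 0.19 (adjusted p = 0.0265), also in 8 of 10. The remaining partner that rose was PRDX4 of the endoplasmic reticulum. At a common library median, GLRX2 stood at 0.47 (adjusted p = 0.0371), SESN3 at 0.41 (adjusted p = 0.0156), GLRX3 at 0.27 (adjusted p = 0.0747) and TXNRD1 at 0.25 (adjusted p = 0.0658). No partner passed with the composition covariates (1.49% of all genes), and 3 passed in animals with a single RNA code (10.3%), GLRX2, SESN3 and GLRX3. TXNRD1 lost its call without X10201 (adjusted p = 0.0646) or X10227 (adjusted p = 0.0668). GCLC lost it without X10201, X10226 or X10227 (adjusted p up to 0.0805).

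Other partners did not pass in drinkers. SRXN1, which repairs over-oxidised peroxiredoxins, had 0.26 ± 0.11 (SE, adjusted p = 0.0785 by limma-trend) and TXNRD2, the mitochondrial thioredoxin reductase, -0.17 ± 0.10 (adjusted p = 0.182) on the TPM scale. At a common library median TXNRD2 fell by 0.43 (adjusted p = 0.00939). Catalase, CAT, which breaks down hydrogen peroxide in peroxisomes, had 0.06 ± 0.16 (adjusted p = 0.784) in drinkers and -0.46 ± 0.21 (adjusted p = 0.371) in controls. CCS, the copper chaperone of SOD1, had -0.03 ± 0.12 (adjusted p = 0.861) on the TPM scale and fell by 0.29 (adjusted p = 0.0319) at a common library median. The extracellular SOD3 had -0.07 ± 0.30 (adjusted p = 0.877) and TXNIP, which binds and inhibits thioredoxin, 0.11 ± 0.21 (adjusted p = 0.725). The change of no partner differed between drinkers and controls by limma-trend, and none had an unadjusted p below 0.05, beside 1036 of all 15324 genes. With all 16 animals together 10 partners rose and none fell on the TPM scale, against 2 higher and 3 lower at a common library median. Of all genes, 32.9% rose and 3.69% fell on the TPM scale and 9.7% rose and 17.1% fell at the common median. Those 10 partners include SRXN1 at 0.25 ± 0.09 (adjusted p = 0.0318), which lost its call without X10197, X10200, X10201, X10203, X10227 or X10229 (adjusted p up to 0.0693). Between the cohorts CCS, which supplies SOD1 with copper, had the opposite direction to SOD1. CCS averaged 5.0 ± 1.97 TPM in cohort 13 and 9.33 ± 0.765 TPM in cohort 9 before (SD, n = 8 each), with a log2 difference of -0.86 ± 0.19 (SE, adjusted p = 0.00583), and 4.90 ± 0.902 TPM in cohort 13 and 10.003 ± 2.15 TPM in cohort 9 after. The ranges of CCS did not overlap between the cohorts. They were 2.33 to 7.36 TPM in cohort 13 and 8.2 to 10.6 TPM in cohort 9 before, and 4.01 to 6.64 TPM in cohort 13 and 7.05 to 13.5 TPM in cohort 9 after. The share of all genes with ranges apart was not counted. Of the partners, 3 of 23 were higher and CCS alone was lower in cohort 13 before, beside 4.45% of all genes higher and 12% lower. With the composition covariates no partner passed before, CCS included (7.89% of all genes). The same held with the red blood cell covariate (3.4%). After, without covariates, 5 of 23 were higher and 4 lower (CCS, TXNRD3, SESN3 and GCLM), beside 10.7% of all genes higher and 25.6% lower.

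**Figure D5:**
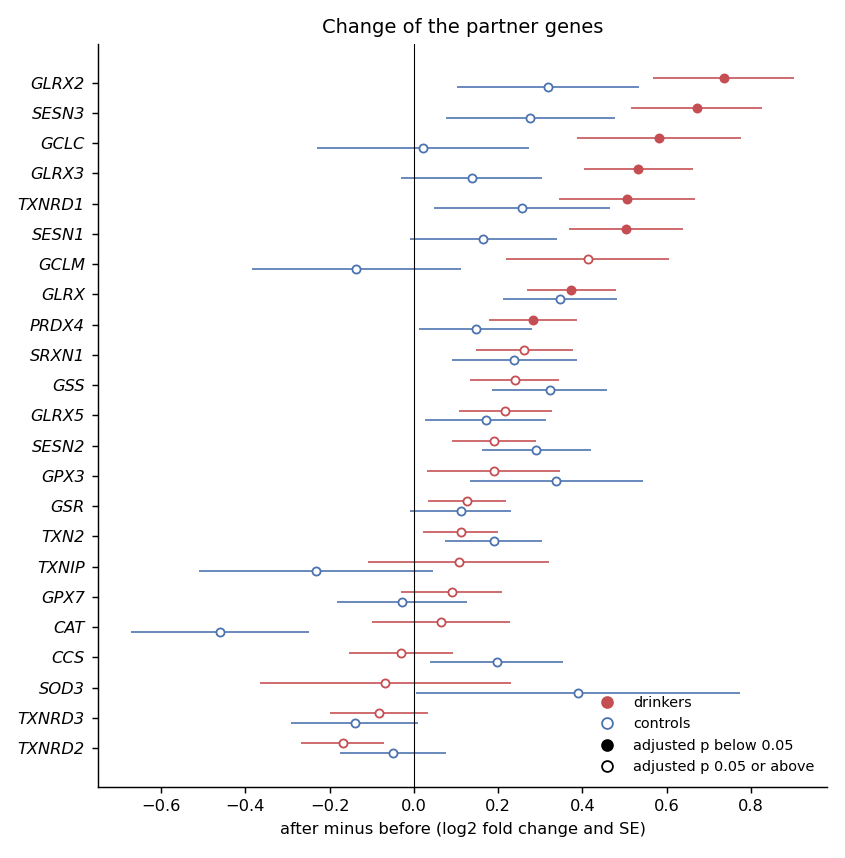
Log2 change, after minus before, with its SE for the 23 partner genes tested, in drinkers (red, n = 10) and controls (blue, n = 6). Filled points have an adjusted p below 0.05 on the TPM scale. There, 8 genes are filled in drinkers, all to the right of 0, and none in controls, while at a common library median 2 were higher and 3 lower in drinkers.

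The members did not move as 1 block. Over the 16 animals and relative to each library's median, the changes of PRDX5 and GPX4 had a Pearson correlation of 0.93 and those of SOD1 and PRDX2 one of 0.87. PRDX3 ran with TXN at 0.72 and was near 0 with SOD1 at 0.10 and with PRDX5 at 0.04. SOD2 and PRDX2 had the lowest value, -0.45. These are descriptions over the same libraries, which share depth and composition. Among 8190 genes with a mean of at least 10 TPM, those whose change was most like that of PRDX3 were HIGD1A and PCNP at 0.99 each. HIGD1A encodes a mitochondrial inner membrane protein. PRDX5 was most like NDUFB11, a subunit of respiratory complex I, at 0.99 and SCAND1 at 0.98, GPX4 like TMEM219 and the ribosomal protein gene RPL8 at 0.98 each, and PRDX2 like the mitochondrial genes MRPL2 at 0.98 and CLPP at 0.97. TXN was most like IAH1 at 0.98 and USMG5 at 0.97, and SOD1 like CFDP1 and EBNA1BP2 at 0.96 each. SOD2 was most like GCA at 0.81 and SERPINB1 at 0.80, and both of these genes are known from neutrophils. GPX1 was most like C20H16orf89 and EHBP1L1 at 0.91 each, and PRDX1 like LOC102116906 and LOC102137047 at 0.93 each.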

How the data were processed

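Libraries were poly-A selected, unstranded and single-end, per the labels' protocols. Per the submitters' processing notes the tools were HTSeq 0.6.1p1, STAR 2.5.2b and an unversioned DESeq2. The sources used here name neither genome build nor annotation. The deposited table gives TPM per library and the authors' log2 fold changes, p-values and FDR (q-values) for drinkers and for controls, per the file headers. The members and lists were chosen with earlier results of these data known, and named partners follow a rule of 7 fixed symbols plus the 6 smallest adjusted p among called ones. Columns of other samples used in no step numbered 0.

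Tests covered genes averaging 1 TPM or more, on log2(TPM + 1) using limma 3.58.1 (limma-trend) in R 4.3.3, animal as a fixed block, or cohort or arm as a covariate within 1 biopsy. Log2 values understate changes of low genes. The pairing comes from the animal number, and the 2 libraries of an animal deviated together with correlations of 0.07 to 0.54 (median 0.33, above 0.1 in 14 of 16). No 2 libraries were identical (highest correlation 0.993). The design had allowed for counts, which the table does not hold. The smallest spacing of TPM values gave back read numbers, whole to within 0.01, for 29092 of 29437 genes (98.8%). For the other 345 genes, many of them abundant, reads could not be recovered, so the depths given leave them out and understate the libraries. limma-voom was run on these reads and called 4322 genes in drinkers. Other alternatives were no block, median scaling, no mitochondrially encoded genes, a pseudocount of 0.1, no filter, a minimum of 5 TPM, the 13 animals with a single RNA code, composition and red blood cell covariates, separate fits and leaving out each animal. Fits were tested on simulated data. Gene names were matched to the RefSeq gene table, and HBA1 and HBA2 were not used. Figures used Python 3.11.15, pandas 2.3.3, numpy 2.4.6 and matplotlib 3.10.9.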

Additional observations from a re-analysis of the deposited data

Results flagged for a closer look

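Each gene's levels in a group and its changes in a group were searched for a single value far from the others by Dixon's criterion, and 4 of 54 such sets held one, where chance gives about 1 in 20. PRDX1 in the first biopsy of control X10233 stood at 342 TPM, with the other 5 controls between 123 and 149 TPM. The PRDX1 change of the same animal, -0.88 on the log2 scale, was therefore far from the 0.02 to 0.20 of the other controls. SOD2 in the second biopsy of control X10197 stood at 117 TPM, with the other 5 between 72.1 and 87.8 TPM. The SOD1 change of drinker X10230 was -0.25, with the other 9 drinkers between 0.14 and 0.56. On the TPM scale PRDX3 moved in opposite directions in the controls of the 2 cohorts, lower after in 3 of 3 of cohort 13 and higher after in 3 of 3 of cohort 9, with a mean change in cohort 13 minus that in cohort 9 of -0.67. With libraries scaled to a common median the mean change was -0.40 in controls of cohort 13, lower in 3 of 3, and -0.02 in controls of cohort 9, higher in 1 and lower in 2, so the opposition did not hold there. Control X10232 of cohort 13, whose 2 libraries carry different RNA codes, had the largest fall, -0.71 on the TPM scale. The part of code in it was not tested, and the difference between controls was not tested by itself.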

How the results depend on the processing

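Beside each count of members, brackets give all genes called in the same fit, of 15324 tested in the main fits of changes. Members called over all animals numbered 3 (5608). They numbered 0 without the replicate block that pairs an animal's biopsies (2889) and 0 with composition covariates (400). They numbered 1 with median scaling (4109), without mitochondrially encoded genes (4313), with the red blood cell covariate (4398) or by limma-voom (3420). In drinkers they numbered 4 (5500), and 0 without the replicate block (2443), with a single RNA code (1601) or with composition covariates (228). They numbered 1 with median scaling (4825), the red blood cell covariate (2531) or limma-voom (4322), and 2 without mitochondrially encoded genes (4976). Between cohorts in first biopsies they numbered 4 (2502), and 0 with composition (1202) or red blood cell covariates (518). In second biopsies they numbered 7 (5561), 8 with median scaling (6715), 9 with composition covariates (5155) and 7 with the red blood cell covariate (5033). The settings on second biopsies were chosen after seeing the data. Leaving out 1 animal gave 1 to 5 members over all animals (4063 to 6704) and 3 to 5 in drinkers (3508 to 6900). It gave 3 to 6 between cohorts in first biopsies (1727 to 3440) and 0 elsewhere (at most 69). PRDX2 over all animals turned to -0.026 with median scaling and to -0.0094 (adjusted p = 0.941) by limma-voom, TXNRD1 over all animals to -0.0057 with composition covariates, and TXNRD2 between cohorts to 0.22 with median scaling in second biopsies. The cause was not tested.

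Genes called over all animals numbered 5608, and 2889 without the replicate block, 400 with composition covariates and 3420 by limma-voom (4063 to 6704 with 1 animal left out). In drinkers they numbered 5500, and 2443 without the replicate block, 1601 with a single RNA code, 228 with composition covariates and 2531 with the red blood cell covariate (3508 to 6900). In controls they numbered 46, and 8 without the replicate block, 89 with median scaling, 91 without mitochondrially encoded genes, 24 with no filter, 13 with a single RNA code, 100 by limma-voom and 9 in a separate fit (6 to 69). For the difference between the cohorts' changes they numbered 2, and 8 with median scaling, 0 with a pseudocount of 0.1, with a minimum of 5 TPM, with the red blood cell covariate or by limma-voom, and 1 with a single RNA code or composition covariates (1 to 7). For drinkers against controls 1 gene passed in second biopsies with the red blood cell covariate, and 0 to 0 with 1 animal left out. Between cohorts in first biopsies they numbered 2502, and 5166 with median scaling, 5876 without mitochondrially encoded genes, 3792 with no filter, 1383 with a minimum of 5 TPM, 5871 with a single RNA code, 1202 with composition covariates, 518 with the red blood cell covariate and 4843 by limma-voom. In second biopsies they numbered 5561, and 6715 with median scaling, 5155 with composition covariates and 5033 with the red blood cell covariate (1727 to 3440 in first biopsies with 1 animal left out). Of 1899 values of single members under an alternative, 1632 kept direction and side of the threshold, 89 lost a call, 39 gained one, 137 uncalled values moved across 0 and 2 called values did.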
